A study of Mus musculus with 6 samples.

Results

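The 6 genes that encode the main carriers of the transmitter glutamate were followed in the hippocampus of Phf21bΔ4/Δ4 and Phf21b+/+ mice by RNA-Seq. They were taken by gene symbol, and all of them were present among the 14477 genes listed. *Slc17a6*, *Slc17a7*, and *Slc17a8* encode the vesicular carriers VGLUT2, VGLUT1, and VGLUT3, and *Slc1a1*, *Slc1a2*, and *Slc1a3* encode the plasma membrane carriers EAAC1, GLT-1, and GLAST. The 6 libraries came from 3 untreated Phf21bΔ4/Δ4 mice (mice 2, 3, and 6) and 3 untreated Phf21b+/+ mice (mice 5, 7, and 8), with 1 library of total RNA depleted of ribosomal RNA from each mouse. The Phf21bΔ4/Δ4 mice carry a deletion in exon 4 of *Phf21b*, made with CRISPR/Cas9 in the whole body, on a C57BL/6J background. The deletion lowers PHF21B and does not remove it, so the line is a model of depletion. The study used littermates of both sexes aged 2 to 6 months, and the sex and exact age of the 6 mice sequenced were not given in the sources used here. PHF21B reads histone marks, and the question put to these libraries was which hippocampal genes change when it is depleted.

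Glutamate is the main excitatory transmitter of the brain. A vesicular carrier loads it into synaptic vesicles, driven by the proton gradient that the vesicular proton pump builds, and a neuron's vesicular carrier is a label of its type: VGLUT1 prevails in cortical and hippocampal pyramidal and granule neurons, VGLUT2 in neurons of the thalamus, habenula, and brainstem, and VGLUT3 in scattered neurons that release another transmitter as well. After release, glutamate is cleared from the cleft by plasma membrane carriers that use the sodium gradient. GLT-1 and GLAST do this on astrocytes, and EAAC1 does it on neurons. Astrocytes convert the glutamate to glutamine, which neurons take back and turn into glutamate again.

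*Slc17a6* was the gene that stood lowest in the Phf21bΔ4/Δ4 hippocampus relative to the Phf21b+/+ hippocampus, at 26.6 against 106 CPM (read counts scaled to the library size). *Slc17a7* was higher, at 1030 against 718 CPM, and so was *Slc1a1*, at 221 against 172 CPM. In these 3 genes all mice of a genotype lay beyond all mice of the other, which was also so in 31.0% of all listed genes. *Slc17a8*, *Slc1a2*, and *Slc1a3* overlapped between genotypes. None of the 6 genes was differentially expressed at an FDR under 0.1 with a fold change above 1.3 by limma, a test fitted over all genes at once with Benjamini-Hochberg adjustment. By the same test 1.22% of all genes were differentially expressed, 0.553% higher and 0.663% lower in Phf21bΔ4/Δ4 mice. Without adjustment, 3 of the 6 genes had a p under 0.05 by limma, compared with 23.6% of all genes, and limma voom on recovered reads also called 0 of the 6.

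The promoters of the 3 genes whose genotypes did not overlap are shown for the sequence just upstream of their starts. They come from RefSeq, build GRCm38.p6, and each runs from 5′ to 3′ on the strand of the gene up to the base before the first start in RefSeq or GENCODE. Capitals mark the GC box GGGCGG or its reverse complement CCGCCC. The *Slc17a6* stretch is chr7:51621580-51621829, the *Slc17a7* stretch chr7:45163671-45163920, and the *Slc1a1* stretch chr19:28834885-28835048, all on the plus strand.
Slc17a6: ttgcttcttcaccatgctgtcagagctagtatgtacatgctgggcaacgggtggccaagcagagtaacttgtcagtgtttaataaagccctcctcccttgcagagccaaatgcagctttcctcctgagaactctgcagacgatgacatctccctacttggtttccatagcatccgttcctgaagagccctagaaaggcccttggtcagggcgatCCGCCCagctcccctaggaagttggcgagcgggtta
Slc17a7: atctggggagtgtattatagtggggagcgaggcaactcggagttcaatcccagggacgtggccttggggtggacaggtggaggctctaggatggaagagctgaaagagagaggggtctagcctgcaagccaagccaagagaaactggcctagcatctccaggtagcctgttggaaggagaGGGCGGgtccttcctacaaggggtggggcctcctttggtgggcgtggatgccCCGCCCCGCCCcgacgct
Slc1a1: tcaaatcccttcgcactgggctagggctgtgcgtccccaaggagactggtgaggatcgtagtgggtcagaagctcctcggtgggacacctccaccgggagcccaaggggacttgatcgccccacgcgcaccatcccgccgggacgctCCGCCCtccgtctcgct
The GC box, a letter pattern common in mammalian promoters, was found in each of these stretches, 3 times in that of *Slc17a7*. It was also found before the start of *Slc1a3*, whose genotypes overlapped, so it did not set the 3 genes shown apart. It was in 32.742% of the 32851 windows of 250 bases before RefSeq starts, read on both strands. The cyclic AMP response element TGACGTCA, searched because the study followed the factor CREB, was in none of the windows of the 6 genes and in 1.546% of all windows. Its half-site TGACG lay 98 to 102 bases before the second RefSeq start of *Slc17a6* and 9 to 13 bases before the start of *Slc1a3*, and it was in 17.765% of all windows. A match of letters is a description of the window and does not show a binding site.

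Levels of different genes were compared as CPM per kilobase of annotated exons. In the Phf21b+/+ hippocampus *Slc1a2* was highest at 265 ± 44.2 CPM per kilobase (SD, n = 3), followed by *Slc17a7* at 133 ± 21.2 and *Slc1a3* at 88.6 ± 7.68 CPM per kilobase. *Slc1a1* at 20.8 ± 1.94 and *Slc17a6* at 19.7 ± 5.10 CPM per kilobase could not be placed in order, because their ranges over the 3 mice overlapped. *Slc17a8* was far below them at 1.04 ± 0.105 CPM per kilobase. Every other pair of neighbors in this order was apart in all 3 mice.

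In the Phf21bΔ4/Δ4 hippocampus *Slc1a2*, *Slc17a7*, *Slc1a3*, and *Slc1a1* kept their places, at 313 ± 46.4, 191 ± 22.0, 104 ± 12.1, and 26.8 ± 1.44 CPM per kilobase (SD, n = 3). *Slc17a6*, at 4.93 ± 4.15 CPM per kilobase, was below *Slc1a1* here too, but apart from it in all 3 mice. Its range over the mice overlapped with that of *Slc17a8* at 1.29 ± 0.677 CPM per kilobase. Within each of mice 2, 3, and 6 *Slc17a6* was above *Slc17a8*, at 1.35 against 1.12, 9.47 against 0.716, and 3.97 against 2.04. Per kilobase of the longest transcript the order of the means was the same, but which neighbors overlapped was not. *Slc1a2* and *Slc17a7* then overlapped in both genotypes, and *Slc17a6*, at 18.0 to 30.3 CPM per kilobase, was apart from *Slc1a1*, at 42.3 to 50.1, in Phf21b+/+ mice. An order of mRNA levels in tissue says nothing of the level within a cell that uses the gene.

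**Figure D1:**
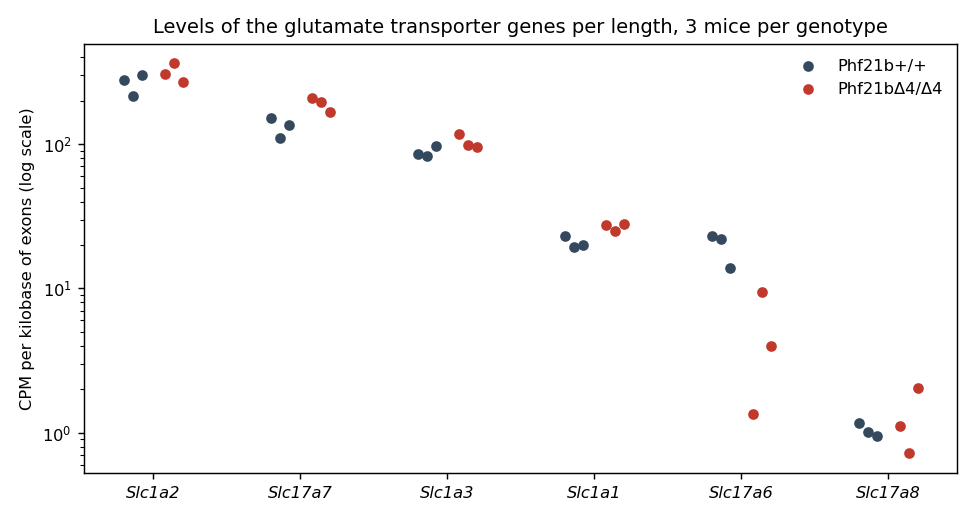
CPM per kilobase of exons (log scale) of the 6 genes, ordered by their mean in Phf21b+/+ mice; each point is 1 mouse, with 3 mice per genotype. *Slc17a6* stands between *Slc1a1* and *Slc17a8* in both genotypes, with points that overlap those of *Slc1a1* in Phf21b+/+ mice (19.7 CPM per kilobase on average) and those of *Slc17a8* in Phf21bΔ4/Δ4 mice (4.93).

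*Slc17a6* (chr7:51622006-51671119, plus strand) encodes VGLUT2, the vesicular carrier of thalamic and habenular neurons. Its values were 7.30, 51.2, and 21.4 CPM in Phf21bΔ4/Δ4 mice 2, 3, and 6, and 125, 118, and 74.7 CPM in Phf21b+/+ mice 5, 7, and 8. Every Phf21bΔ4/Δ4 mouse was below every Phf21b+/+ mouse, with mouse 2 lowest of all and mouse 3 nearest to the Phf21b+/+ range. The lowest Phf21b+/+ mouse was 1.46 times the highest Phf21bΔ4/Δ4 mouse. The log2 fold change was -2.37 (SE 0.66, 95% interval -3.93 to -0.81), a level 5.17 times lower, with an FDR of 0.144 by limma. The exact permutation p was 0.10, the smallest that 3 mice against 3 allow.

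Within the Phf21bΔ4/Δ4 group *Slc17a6* was also the most uneven of the 6 genes, with its highest mouse 7.01 times its lowest, compared with 1.68 times in the Phf21b+/+ group. Between 173 and 1074 reads lay behind the values of the Phf21bΔ4/Δ4 mice. The size of the difference rested on which of them were used: the log2 fold change was -1.64 without mouse 2 (FDR 0.332 by limma) and -3.05 without mouse 3 (FDR 0.120 by limma). Over the fits that left out any 1 mouse the FDR ranged from 0.0939 to 0.356 by limma, and the lowest, without mouse 6 and at a log2 fold change of -2.42, was past both thresholds. With the mice weighted by arrayWeights it was -2.82 with an FDR of 0.0166 by limma.

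*Slc17a7* (chr7:45163949-45176142, plus strand) encodes VGLUT1, the carrier of hippocampal pyramidal and granule neurons. Its values were 1133, 1058, and 900 CPM in Phf21bΔ4/Δ4 mice 2, 3, and 6, and 823, 596, and 733 CPM in Phf21b+/+ mice 5, 7, and 8. All 3 Phf21bΔ4/Δ4 mice were above all 3 Phf21b+/+ mice, with a narrow gap in which the lowest Phf21bΔ4/Δ4 mouse was 1.09 times the highest Phf21b+/+ mouse. The log2 fold change was 0.53 (SE 0.15, 95% interval 0.16 to 0.89), a level 1.44-fold higher, with an FDR of 0.150 by limma. Under quantile normalization, which forces the same distribution on every library, it was 0.23 and the genotypes overlapped. It passed both thresholds without Phf21bΔ4/Δ4 mouse 6, at 0.62 with an FDR of 0.0563 by limma, and with arrayWeights, at 0.57 with an FDR of 0.0160 by limma.

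*Slc17a8* (chr10:89574020-89621253, minus strand) encodes VGLUT3, found in scattered interneurons and in fibers that reach the hippocampus from the brainstem. It was the gene with the fewest reads, 71 to 221 per mouse. Its values were 5.27, 3.38, and 9.61 CPM in Phf21bΔ4/Δ4 mice 2, 3, and 6, and 5.46, 4.77, and 4.49 CPM in Phf21b+/+ mice 5, 7, and 8. The Phf21b+/+ mice lay close together, between the lowest and the highest Phf21bΔ4/Δ4 mouse. The log2 fold change was 0.18 (SE 0.36, 95% interval -0.68 to 1.05), with an FDR of 0.768 by limma, and it was -0.21 without Phf21bΔ4/Δ4 mouse 6, so no direction could be given for this gene.

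**Figure D2:**
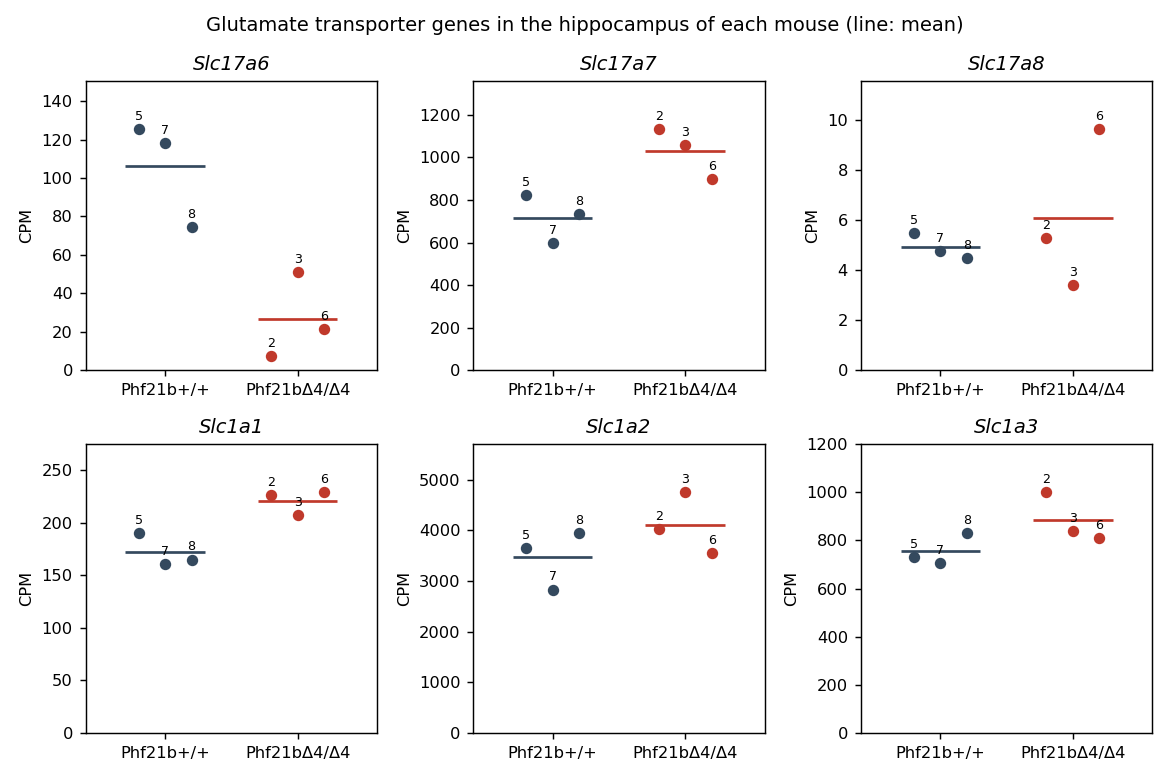
CPM of each of the 6 genes in each mouse, on a linear axis from 0, with the mouse number over each point and a line at the mean of the 3 mice of a genotype. The genotypes are apart in *Slc17a6*, *Slc17a7*, and *Slc1a1*, where the first 2 of these reach from 7.30 to 125 and from 596 to 1133 CPM over the 6 mice, and they overlap in *Slc17a8*, *Slc1a2*, and *Slc1a3*.

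The opposite differences of *Slc17a6* and *Slc17a7* showed in the composition of the vesicular carrier mRNA. Of the summed level per kilobase of the 3 vesicular genes, *Slc17a6* made up 13.1%, 16.4%, and 9.17% in Phf21b+/+ mice 5, 7, and 8, and 0.636%, 4.59%, and 2.30% in Phf21bΔ4/Δ4 mice 2, 3, and 6. No Phf21bΔ4/Δ4 mouse reached the share of a Phf21b+/+ mouse, and the means were 2.51 ± 1.99% and 12.9 ± 3.63% (SD, n = 3). *Slc17a7* made up 86.4 ± 3.69% in Phf21b+/+ mice and 96.8 ± 1.90% in Phf21bΔ4/Δ4 mice (SD, n = 3).

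The level of *Slc17a7* per kilobase was 6.57, 5.04, and 9.83 times that of *Slc17a6* in Phf21b+/+ mice 5, 7, and 8. In Phf21bΔ4/Δ4 mice 2, 3, and 6 it was 155, 20.7, and 42.0 times. The ratio is a division within a library and does not depend on the library size. That it did not overlap between genotypes follows from both genes being apart in opposite directions, and it adds no separate result. *Slc17a8* was at 0.347% to 1.18% of the summed level in the 6 mice. The summed level itself was 154 ± 21.9 CPM per kilobase in Phf21b+/+ mice and 197 ± 21.3 in Phf21bΔ4/Δ4 mice (SD, n = 3), with Phf21b+/+ mouse 5 at 177 above Phf21bΔ4/Δ4 mouse 6 at 173.

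*Slc1a1* (chr19:28835049-28913960, plus strand) encodes EAAC1, the carrier of neurons. Its values were 226, 207, and 229 CPM in Phf21bΔ4/Δ4 mice 2, 3, and 6, and 190, 161, and 165 CPM in Phf21b+/+ mice 5, 7, and 8. All 3 Phf21bΔ4/Δ4 mice were above all 3 Phf21b+/+ mice, and the lowest of them was 1.09 times the highest Phf21b+/+ mouse. The log2 fold change was 0.36 (SE 0.09, 95% interval 0.14 to 0.58), a level 1.29-fold higher, with an FDR of 0.135 by limma, so that it fell just short of the fold threshold as well. It was 0.40 with an FDR of 0.0149 by limma with arrayWeights, and 0.21 with overlapping genotypes under quantile normalization.

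An exon of *Slc1a1* overlaps *4430402I18Rik* on the opposite strand, and the sources used here do not state whether the counting used the strand. *4430402I18Rik* itself had 2.86 to 4.09 CPM in Phf21bΔ4/Δ4 mice and 4.27 to 7.30 CPM in Phf21b+/+ mice. It was far below *Slc1a1* in every mouse and its genotypes lay the other way around. The part of the overlap in the values of *Slc1a1* was not tested.

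*Slc1a2* (chr2:102658659-102790784, plus strand) encodes GLT-1, the main carrier of astrocytes, and it was the gene with the highest level among the 6. Its values were 4022, 4759, and 3549 CPM in Phf21bΔ4/Δ4 mice 2, 3, and 6, and 3658, 2832, and 3952 CPM in Phf21b+/+ mice 5, 7, and 8. The genotypes overlapped, since Phf21bΔ4/Δ4 mouse 6 was below 2 of the Phf21b+/+ mice. The log2 fold change was 0.24 (SE 0.20, 95% interval -0.23 to 0.72), with an FDR of 0.464 by limma and an exact permutation p of 0.40. The antisense gene *Gm13872*, which overlaps an exon of *Slc1a2*, is not among the listed genes.

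*Slc1a3* (chr15:8634124-8710764, minus strand) encodes GLAST, the other carrier of astrocytes and a marker of radial glia. Its values were 1002, 838, and 811 CPM in Phf21bΔ4/Δ4 mice 2, 3, and 6, and 733, 707, and 831 CPM in Phf21b+/+ mice 5, 7, and 8. The overlap rested on Phf21b+/+ mouse 8, which was above Phf21bΔ4/Δ4 mouse 6 by a small margin. The log2 fold change was 0.22 (SE 0.12, 95% interval -0.07 to 0.51) with an FDR of 0.301 by limma, and it was -0.03 under quantile normalization. When each mouse was instead centered on its median, the genotypes of *Slc1a3* no longer overlapped.

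The 3 plasma membrane genes were also set against each other. Of their summed level per kilobase, *Slc1a2* made up 70.4 ± 3.65% in Phf21bΔ4/Δ4 mice and 70.6 ± 2.36% in Phf21b+/+ mice (SD, n = 3). *Slc1a3* made up 23.5 ± 2.96% and 23.8 ± 2.0%, and *Slc1a1* made up 6.10 ± 0.947% and 5.62 ± 0.732%. Each of these shares overlapped between genotypes, which does not show that they were equal.

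**Figure D3:**
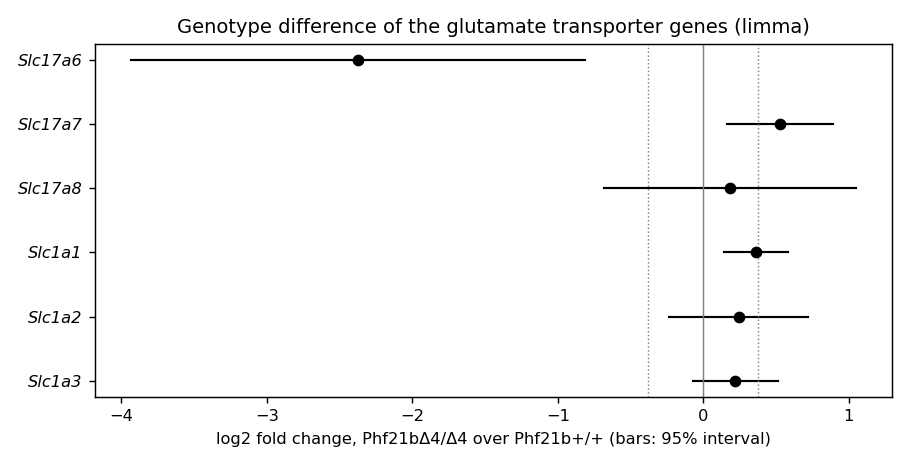
log2 fold change of each of the 6 genes in Phf21bΔ4/Δ4 over Phf21b+/+ mice with its 95% interval from limma; the solid line is at 0 and the dotted lines are at a fold change of 1.3 in either direction. The intervals of *Slc17a6* (-3.93 to -0.81), *Slc17a7* (0.16 to 0.89), and *Slc1a1* (0.14 to 0.58) do not reach 0, and the interval of *Slc17a6* is the widest of the 6.

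The estimate was above 0 in 5 of the 6 genes, compared with 47.55% of all listed genes. Under quantile normalization it was above 0 in 4 of them, and *Slc1a3* was at -0.03. The 6 had a median log2 fold change of 0.23, while the median over all listed genes was -0.019. This background was not matched to the level of the genes, and many of the most abundant listed genes also had estimates above 0. The 6 genes did not vary over the mice as a block. Over the 6 mice, the log2 level of *Slc17a6* ran against that of *Slc17a7* (r = -0.75, n = 6) and of *Slc1a3* (r = -0.89, n = 6), and *Slc17a7* ran with *Slc1a1* (r = 0.87, n = 6) and *Slc1a2* (r = 0.79, n = 6). *Slc17a7* and *Slc17a8*, both vesicular, had an r of -0.01 (n = 6). These values include the difference between genotypes: taken as deviations from the genotype means, r was -0.21 for *Slc17a6* with *Slc17a7*, -0.79 for *Slc17a6* with *Slc1a3*, 0.49 for *Slc17a7* with *Slc1a1*, and 0.75 for *Slc17a7* with *Slc1a2* (n = 6). They are descriptions over mice and carry no test.

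The genes whose log2 level over the 6 mice was most like that of each carrier were sought among the 12965 listed genes whose log2 CPM averaged 1 or more. For *Slc17a6* these were *Rsrc1* (r = 0.998), *Med25* (r = 0.989), and *Med29* (r = 0.988), though *Rsrc1* reached only from 43.8 to 55.9 CPM while *Slc17a6* reached from 7.30 to 125 CPM. For *Slc17a7* they were *Eml2* (r = 0.999), *Eri3* (r = 0.998), and *Ap3b2* (r = 0.997), and for *Slc17a8* they were *Actb* (r = 0.998), *Tafa5* (r = 0.998), and *Rem2* (r = 0.991). For *Slc1a1* they were *Ranbp6* (r = 0.998), *Thumpd1* (r = 0.989), and *Wdr59* (r = 0.989), for *Slc1a2* they were *Rbbp6* (r = 0.995), *Kif5a* (r = 0.994), and *Rims1* (r = 0.993), and for *Slc1a3* they were *Kdm2a* (r = 0.996), *Me3* (r = 0.989), and *Papss2* (r = 0.985). With 6 mice and so many candidates, values this near to 1 were found for every one of the 6 genes.

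The hippocampus borders on the habenula and thalamus, and *Slc17a6* lay beside markers of both. Tissue values also cannot tell fewer cells of a type from less RNA in each cell. All 8 listed markers of the medial habenula were lower in Phf21bΔ4/Δ4 mice at an FDR under 0.1 with a fold change above 1.3. Of all genes, 0.663% were lower by this call. The marker lists here and below were chosen with earlier results of these data known. Most of these habenula markers are also in the study's own list of differentially expressed genes from the same libraries. The count is therefore a description and no independent evidence. *Chat* and *Pou4f1* had at most 3 reads in each Phf21bΔ4/Δ4 mouse. With these 2 held at the level of 3 reads the median log2 fold change was -5.18, and as fitted it was -5.29 for the 8 markers. Their summed level was 8.52, 7.19, and 4.96 CPM in Phf21bΔ4/Δ4 mice 2, 3, and 6, and 141, 147, and 198 CPM in Phf21b+/+ mice 5, 7, and 8. Of 12 listed thalamus markers, *Tcf7l2*, *Zic1*, and *Zic4* were lower by the same call, against the same 0.663% of all genes. In 6 of the 12 all Phf21bΔ4/Δ4 mice were below all Phf21b+/+ mice, compared with 16.0% of all genes. The median log2 fold change was -1.35. *Rora* and *Ntng1*, which are among the 3 most abundant of the list and are also used outside the thalamus, overlapped between genotypes. Whether the other markers of the list, the called ones included, are used only in the thalamus was not tested.

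The summed level of the thalamus markers was 212, 291, and 262 CPM in Phf21bΔ4/Δ4 mice 2, 3, and 6, and 698, 641, and 441 CPM in Phf21b+/+ mice 5, 7, and 8. This sum ranked the 6 mice as *Slc17a6* did, but the order within the Phf21bΔ4/Δ4 group rested on *Rora* and *Ntng1*. Without these, a choice made after seeing the data, the sum was 82.3, 81.4, and 179 CPM in Phf21bΔ4/Δ4 mice 2, 3, and 6, and 468, 485, and 336 CPM in Phf21b+/+ mice 5, 7, and 8, so that the genotypes were still apart and the order of the mice differed from that of *Slc17a6*. Mouse 3 was the highest Phf21bΔ4/Δ4 mouse in 5 of the 12 markers, and mouse 2 was the lowest in 3. The habenula markers ranked the mice differently within each genotype: Phf21b+/+ mouse 8 was highest in all 8 of them while it was the lowest Phf21b+/+ mouse in *Slc17a6* and in 9 of the 12 thalamus markers. The part of these regions in the values of *Slc17a6* was not tested, and how the tissue was dissected was not given in the sources used here.

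**Figure D4:**
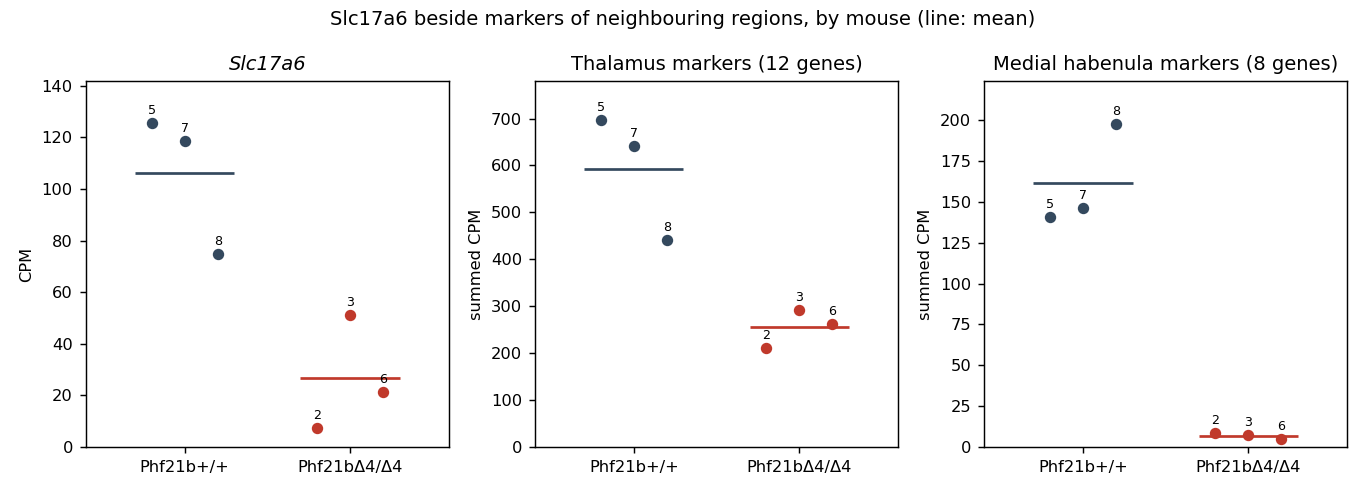
CPM of *Slc17a6* (left), and summed CPM of 12 thalamus markers (middle) and 8 medial habenula markers (right) in each mouse, on linear axes from 0, with mouse numbers over the points and a line at the mean of 3 mice. All 3 panels keep the genotypes apart; within Phf21b+/+ mice, mouse 8 is lowest in the left (74.7 CPM) and middle (441 CPM) panels and highest in the right panel (198 CPM).

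*Slc17a7* was set beside the markers of hippocampal and cortical neurons. The summed level of 8 markers of CA1 pyramidal neurons was 1186, 1364, and 1001 CPM in Phf21bΔ4/Δ4 mice 2, 3, and 6, and 438, 341, and 465 CPM in Phf21b+/+ mice 5, 7, and 8. *Fibcd1*, *Mpped1*, and *Gpr161* of this list were higher in Phf21bΔ4/Δ4 mice at an FDR under 0.1 with a fold change above 1.3. Of all genes, 0.553% were higher by this call. In 5 of the 8 all Phf21bΔ4/Δ4 mice were above all Phf21b+/+ mice, compared with 15.0% of all genes. The 3 called genes are also in the study's own list of differentially expressed genes from these libraries. The CA1 list was chosen with earlier results known, so these counts are no independent evidence. Markers of dentate granule cells lay the other way from those of CA1. They were at 291, 265, and 642 CPM in Phf21bΔ4/Δ4 mice 2, 3, and 6 and 691 to 815 CPM in Phf21b+/+ mice. Of the 7, 5 were below in all Phf21bΔ4/Δ4 mice, compared with 16.0% of all genes, and none passed the thresholds. Under quantile normalization 6 of the 7 were below, compared with 12.4% of all genes, and with centering 3 were, compared with 11.7%. An unadjusted p under 0.05 by limma was found in 6 of the 7, compared with 23.6% of all genes.

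Phf21bΔ4/Δ4 mouse 6 was near the Phf21b+/+ mice in the sum of the dentate markers, but not in each of them. *Calb1*, at 120 CPM, was lower in mouse 6 than in any other mouse. Mouse 6 was also the Phf21bΔ4/Δ4 mouse with the least *Slc17a7*, and a link between these was not tested. Markers of CA2 and CA3 pyramidal neurons (206 to 492 CPM against 374 to 406 CPM) and general markers of forebrain excitatory neurons, among them *Camk2a* and *Nrgn* (1684 to 2331 CPM against 1533 to 2213 CPM), overlapped in their sums. The 8 CA2 and CA3 markers had a median log2 fold change of -0.73, with 2 of the 8 estimates above 0. All Phf21bΔ4/Δ4 mice were below in 2 of the 8, compared with 16.0% of all genes, and 0 passed the thresholds. The sum for 6 markers of deep cortical layers was 258, 363, and 246 CPM in Phf21bΔ4/Δ4 mice 2, 3, and 6 against 195 to 241 CPM. All Phf21bΔ4/Δ4 mice were above in 2 of the 6, compared with 15.0% of all genes. Of their estimates 5 were above 0, and 0 passed the thresholds. The part of the neuron makeup in the values of *Slc17a7* was not tested.

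*Slc1a2* and *Slc1a3* were set beside other genes of astrocytes. For 11 astrocyte markers, without these 2, the sum was 2442 to 2673 CPM in Phf21bΔ4/Δ4 mice and 2621 to 2866 CPM in Phf21b+/+ mice. Their median log2 fold change was -0.003, or -0.18 under quantile normalization. As deposited, 2 of the 11 (18.2%) were below in all Phf21bΔ4/Δ4 mice, compared with 16.0% of all genes. With centering 2 were, compared with 11.7% of all genes, and under quantile normalization 6 were, compared with 12.4%. *Aqp4*, the water channel of astrocyte endfeet, was lower in Phf21bΔ4/Δ4 mice at an FDR of 0.0669 by limma, at 254, 210, and 255 CPM in mice 2, 3, and 6 against 391, 393, and 362 CPM in mice 5, 7, and 8. *Gfap*, a filament protein of reactive and fibrous astrocytes, was at 230 to 443 CPM against 475 to 589 CPM with an FDR of 0.165 by limma. None of the 11 was higher in all Phf21bΔ4/Δ4 mice, under either scaling or as deposited. The part of astrocytes in the values of *Slc1a2* and *Slc1a3* was not tested.

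*Slc1a1* is used by both excitatory and inhibitory neurons. Markers of GABAergic interneurons were higher in their sum, at 665 to 807 CPM in Phf21bΔ4/Δ4 mice and 457 to 519 CPM in Phf21b+/+ mice, with *Gad2* past both thresholds and 6 of 8 above in all Phf21bΔ4/Δ4 mice, compared with 15.0% of all genes. The sums for oligodendrocytes and microglia overlapped, and none of their markers was differentially expressed. Endothelial markers were at 120 to 151 CPM against 85.2 to 127 CPM, with 3 of 5 above in all Phf21bΔ4/Δ4 mice, against the same 15.0%, and none past the thresholds. Choroid plexus markers were at 15461 CPM in Phf21b+/+ mouse 7 and 954 CPM in Phf21b+/+ mouse 8, and at 21.7 to 78.7 CPM in the other 4 mice. The part of these cells in the values of *Slc1a1* was not tested.

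The genes that work with the carriers were followed as 5 lists. Of their 52 genes, 45 were listed, 1 was lower and none was higher in Phf21bΔ4/Δ4 mice past both thresholds, and their median log2 fold change was 0.13. All Phf21bΔ4/Δ4 mice were above all Phf21b+/+ mice in 17 of the 45 (37.8%) and below in 5 (11.1%), compared with 15.0% and 16.0% of all listed genes. This split turned under quantile normalization, to 8 above and 13 below with a median of -0.04, when 15.4% and 12.4% of all genes were above and below, while centering gave 18 above and 2 below, when 19.1% and 11.7% of all genes were, so no direction could be given for the 45 genes.

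Among related carriers of the same families, 4 of 10 were listed and none passed the thresholds, with a median log2 fold change of 0.33. *Slc1a4*, which carries neutral amino acids such as alanine and serine, was at 103, 96.5, and 69.6 CPM in Phf21bΔ4/Δ4 mice 2, 3, and 6, and at 61.7, 57.0, and 59.4 CPM in Phf21b+/+ mice 5, 7, and 8. It was above in all Phf21bΔ4/Δ4 mice, with a log2 fold change of 0.57 and an FDR of 0.139 by limma. *Slc1a5*, another neutral amino acid carrier, had a log2 fold change of -0.54 at 0.714 to 1.94 CPM, with overlapping genotypes.

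Vesicular carriers for other transmitters held the gene past the thresholds, *Slc18a3*, the vesicular carrier of acetylcholine, whose gene lies within that of the habenula marker *Chat*. It had 0, 0, and 1 reads in Phf21bΔ4/Δ4 mice 2, 3, and 6, and 33, 55, and 98 reads in Phf21b+/+ mice 5, 7, and 8. It was at least 19.3-fold lower when set against the level of 3 reads in a library, with an FDR of 0.0669 by limma, and it no longer passed in 5 of the 6 fits that left out a mouse. *Slc32a1*, the vesicular carrier of GABA, was at 51.5, 56.4, and 44.2 CPM in Phf21bΔ4/Δ4 mice 2, 3, and 6 and 27.2, 40.1, and 28.9 CPM in Phf21b+/+ mice 5, 7, and 8. It was above in all Phf21bΔ4/Δ4 mice, as *Slc17a7* was, with a log2 fold change of 0.68 and an FDR of 0.134 by limma. *Slc18a2*, the vesicular carrier of monoamines, had a log2 fold change of -1.37 with overlapping genotypes.

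All 15 genes of the glutamate-glutamine cycle and glutamate metabolism were listed, none passed the thresholds, and the median log2 fold change was -0.10. *Slc25a22*, a mitochondrial glutamate carrier, was at 186, 185, and 121 CPM in Phf21bΔ4/Δ4 mice 2, 3, and 6 and 107, 88.4, and 101 CPM in Phf21b+/+ mice 5, 7, and 8, with a log2 fold change of 0.71 and an FDR of 0.135 by limma. *Slc38a5*, a glutamine carrier, had a log2 fold change of -0.64 with overlapping genotypes. In 5 genes of this list (33.3%) all Phf21bΔ4/Δ4 mice were above and in 1 (6.67%) they were below, compared with 15.0% and 16.0% of all genes. Under quantile normalization these became 2 (13.3%) and 5 (33.3%), compared with 15.4% and 12.4% of all genes.

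The sodium-potassium pump keeps up the gradient that drives EAAC1, GLT-1, and GLAST. All 6 of its genes were listed and none passed the thresholds, with a median log2 fold change of 0.11, or -0.05 under quantile normalization. *Atp1b1*, a beta subunit, was above in all Phf21bΔ4/Δ4 mice, with a log2 fold change of 0.45 and an FDR of 0.150 by limma.

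The vesicular proton pump provides the gradient for VGLUT1, VGLUT2, and VGLUT3. All 17 of its genes were listed and none passed the thresholds, with a median log2 fold change of 0.15, or -0.04 under quantile normalization. In 8 of them (47.1%) all Phf21bΔ4/Δ4 mice were above and in 3 (17.6%) they were below, compared with 15.0% and 16.0% of all genes. Under quantile normalization these became 2 (11.8%) and 5 (29.4%), compared with 15.4% and 12.4% of all genes. *Atp6v0a1*, a subunit of the membrane sector, had a log2 fold change of 0.57 with an FDR of 0.142 by limma, and *Atp6v1g2*, a subunit of the cytosolic sector found in neurons, had 0.46 with an FDR of 0.149 by limma.

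**Figure D5:**
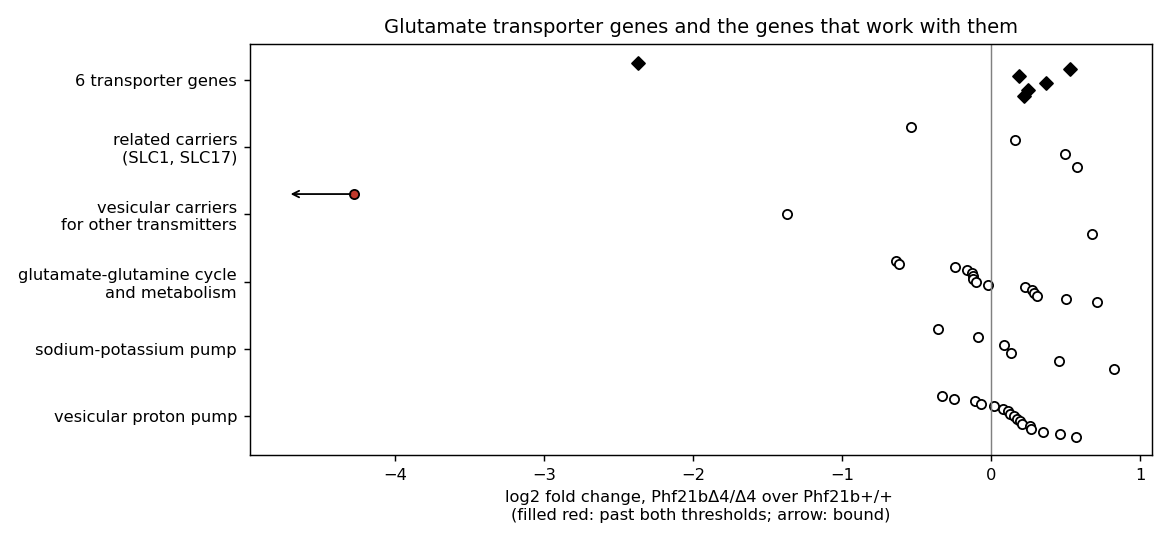
log2 fold change in Phf21bΔ4/Δ4 over Phf21b+/+ mice of the 6 glutamate transporter genes (diamonds) and of 45 listed genes in 5 lists (circles, 1 per gene); the filled circle with an arrow is *Slc18a3* at its bound of 19.3-fold lower, past both thresholds. *Slc17a6* at -2.37 lies outside the range of every other gene shown but *Slc18a3*.

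The deleted gene *Phf21b* was at 2.15, 3.57, and 3.87 CPM in Phf21bΔ4/Δ4 mice 2, 3, and 6 and 6.50, 5.23, and 6.47 CPM in Phf21b+/+ mice 5, 7, and 8, with a log2 fold change of -0.96 and an FDR of 0.141 by limma. All mice lay on the side that their label gives, and the total over the gene does not show which exons were read.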

How the data were processed

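RNA from the hippocampus of 6 mice was sequenced. The authors trimmed reads with Trimmomatic 0.39, mapped them with STAR 2.7.3a to GRCm38, and counted them over GENCODE genes with featureCounts in Subread 1.6.4. They filtered low genes, normalized with edgeR, and deposited log2 CPM of 14477 genes. Whether counting used the strand was not given in the sources used here.

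Mice were grouped by their labels. The values rise in steps of 1 read: 100.0% of them were whole reads within 0.1 once a mean prior of 0.1 reads was removed, with 20495605 to 24881257 reads per mouse on listed genes. A count of 3 reads equals 0.127 to 0.143 CPM, which sets the precision of low values. CPM here is without the prior. The deposited log2 values were fitted by limma 3.58.1 in R 4.3.3 (lmFit, eBayes with trend) over all genes with Benjamini-Hochberg adjustment, and a call needed an FDR under 0.1 together with a change of more than 1.3-fold, as in the study. The study used littermates, and which of these mice shared a litter was not given, so p-values measure only the spread between these samples. Positions and exon lengths come from GENCODE M21, GRCm38, a release other than that of the study.

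The 6 genes and all lists were chosen with earlier results of these data known. Named genes are the 6, *Phf21b*, the called genes and the 2 largest log2 fold changes of each pathway list, called or abundant markers, and the 3 genes most like each carrier. A gene chosen in this way is not reported here. The alternatives were a constant prior variance, robust empirical Bayes, arrayWeights, a pseudocount of 1 or 0.1 CPM on the log2 scale, a filter at an average log2 CPM of 1, quantile normalization, centering on the median, voom on recovered reads, a stricter FDR of 0.05, calls without the fold, the longest transcript, and leaving out each mouse.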

Additional observations from a re-analysis of the deposited data

How the results depend on the processing

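No paired analysis was possible because the genotypes share no replicate number. With the mice weighted by arrayWeights, which gave Phf21b+/+ mouse 8 a weight of 4.63 and Phf21bΔ4/Δ4 mouse 6 a weight of 0.343, the log2 fold changes of *Slc17a6* (-2.82), *Slc17a7* (0.57), *Slc1a1* (0.40), and *Phf21b* (-1.32) passed both thresholds by limma, so that 3 of the 6 transporter genes were called in place of 0, with 17 genes of the pathway lists in place of 1 and 3549 of all genes in place of 176. Under quantile normalization *Slc1a3* turned to -0.028 and only 1 transporter gene, *Slc17a6*, kept its genotypes apart in place of 3; with centering 4 did. The median over all genes was 0.019 and 0.03 under these scalings. Requiring a mean log2 CPM of at least 1 took out *Slc18a3*, the called pathway gene, which had 0, 0, and 1 reads in Phf21bΔ4/Δ4 mice. This filter left 0 called pathway genes and 101 called genes in all, and a constant prior variance left 75 in all. The cause of the other changes was not tested.

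Leaving out each mouse gave log2 fold changes of -3.05 to -1.64 for *Slc17a6*, 0.40 to 0.63 for *Slc17a7*, -0.21 to 0.54 for *Slc17a8*, 0.32 to 0.44 for *Slc1a1*, 0.10 to 0.34 for *Slc1a2*, 0.13 to 0.29 for *Slc1a3*, and -1.12 to -0.70 for *Phf21b*. It gave 0 to 2 called transporter genes, 0 to 12 pathway genes, and 9 to 2830 of all genes. The highest counts came without Phf21bΔ4/Δ4 mouse 6, where *Slc17a6*, *Slc17a7*, and *Phf21b* were called and *Slc17a8* turned to -0.21. The other settings gave 0 called transporter genes, voom on recovered reads included.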
